A study of Homo sapiens with 19 samples.

Results

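The metallothionein genes MT1A, MT1E, MT1F, MT1G, MT1H, MT1X and MT2A were followed in human macrophage-like cells with and without vitamin C (vit C). The genes were chosen by name among the non-control probes of the array, which gave 7 of 31033 gene names and 13 of 50238 probes. Cells of THP-1, an established human monocytic leukaemia line grown with serum, were all differentiated with 30 nM phorbol ester (PMA) in flasks, rested, and then left untreated (UT) or given 0.1 mM vit C. Total RNA was taken 8, 24, 48 and 96 h after the addition and hybridised to 19 Agilent 1-colour arrays. In order of time, the UT groups held 2, 3, 2 and 3 arrays and the vit C-treated groups 3, 2, 2 and 2. The methods describe the replicates as biological, from flasks set up in triplicate, and RNA of low integrity was not put on arrays. Whether flasks of a group came from separate experiments is not stated, so p-values measure the spread between flasks of 1 cell line.

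Metallothioneins are very small proteins in which cysteine recurs throughout the chain, and the cysteines bind zinc, copper and toxic metals such as cadmium in clusters. Their genes are switched on when free zinc rises, through the zinc-sensing transcription factor MTF1, which binds metal response elements in their promoters, and glucocorticoids and oxidants induce several of them too. In macrophages they are known for buffering zinc and copper during activation.

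The human genes stand together on chromosome 16. In the RefSeq annotation of GRCh38.p14 the order from MT2A to MT1X was MT2A, MT1L, MT1E, MT1M, MT1JP, MT1A, MT1DP, MT1CP, MT1B, MT1F, LOC101927536, MT1G, MT1H, MT1IP and MT1X, so that 15 annotated genes span the 7 studied, and 7 of the 8 others also carry a metallothionein name. The promoter table held 3 of the 7 genes (MT2A, MT1H and MT1X). The 250 bases before the start of each, from RefSeq GRCh38.p14 and on the + strand, are shown because the metal response element recurs in them. They lie at chr16:56608334-56608583 (MT2A), chr16:56669564-56669813 (MT1H) and chr16:56682220-56682469 (MT1X), and capitals mark the 7-base cores TGCACNC or TGCGCNC on either strand.
MT2A: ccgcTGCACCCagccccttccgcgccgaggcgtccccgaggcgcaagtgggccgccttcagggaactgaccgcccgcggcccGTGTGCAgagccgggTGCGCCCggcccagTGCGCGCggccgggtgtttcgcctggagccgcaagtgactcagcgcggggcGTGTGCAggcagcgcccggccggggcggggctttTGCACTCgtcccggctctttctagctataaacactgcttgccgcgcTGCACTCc
MT1H: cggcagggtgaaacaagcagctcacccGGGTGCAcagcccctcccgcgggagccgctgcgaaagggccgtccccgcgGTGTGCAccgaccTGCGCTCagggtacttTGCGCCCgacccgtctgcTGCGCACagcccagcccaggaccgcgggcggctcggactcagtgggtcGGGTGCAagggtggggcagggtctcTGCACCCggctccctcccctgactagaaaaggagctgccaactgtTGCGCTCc
MT1X: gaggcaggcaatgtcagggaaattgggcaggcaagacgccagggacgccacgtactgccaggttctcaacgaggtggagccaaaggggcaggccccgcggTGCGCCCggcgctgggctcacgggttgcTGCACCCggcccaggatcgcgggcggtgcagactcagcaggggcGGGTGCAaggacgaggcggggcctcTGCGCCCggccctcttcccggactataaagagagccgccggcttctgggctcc
The MT2A stretch held 7 cores, 5 forward and 2 reverse, and no 2 of them overlapped. The MT1H stretch held 8 cores and the MT1X stretch 4. Of 35116 promoter stretches of this length, 24.8% held at least 1 core, 0.37% held at least 4, 0.0313% at least 7 and 0.0171% at least 8. A match describes the letters and is not a measured binding site.

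The probes show why the type 1 genes are hard to measure apart. Each probe is 60 bases long, and 4 of those that lie in coding sequence are printed with the cysteine codons in capitals.
MT1A probe 1: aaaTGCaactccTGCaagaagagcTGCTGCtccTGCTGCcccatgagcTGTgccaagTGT
MT1H probe 1: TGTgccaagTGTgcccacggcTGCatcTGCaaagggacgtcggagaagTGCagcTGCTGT
MT1H probe 2: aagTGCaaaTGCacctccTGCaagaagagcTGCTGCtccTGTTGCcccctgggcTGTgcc
MT1X probe 1: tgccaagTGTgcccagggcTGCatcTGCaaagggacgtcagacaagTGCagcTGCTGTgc
Probe 1 of MT1H held 7 cysteine codons among its 20 codons, and the MT1A probe and probe 2 of MT1H held 8 each. Probe 1 of MT1H and probe 1 of MT1X were identical at 55 of 58 overlapping bases (94.8%), and the MT1A probe and probe 2 of MT1H at 50 of 54 (92.6%). The array's own annotation lists the MT1A probe under MT1A and MT1M, probe 1 of MT1H under MT1H, MT1X and MT1L, probe 2 of MT1H under MT1H and MT1M, and probe 1 of MT1X under MT1X, MT1H and MT1A. The values named MT1A, MT1H and MT1X are therefore uncertain as those of single genes. Probes of MT1E, MT1F, MT1G and MT2A that bear an annotation were listed under 1 gene each, but some resemble those of other genes. Probe 1 of MT1E was identical to probe 1 of MT1L at 38 of 42 overlapping bases (90.5%). It matched the MT1B probe at 49 of 59 (83.1%) and probe 1 of MT1G at 36 of 44 (81.8%). The MT1F probe matched probe 2 of MT2A at 37 of 46 (80.4%). Probe 2 of MT1E and probe 3 of MT2A carry none.

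A level below is the log2 processed signal of the brightest probe of a gene minus the array's 75th percentile, so that 0 is that percentile. All 7 genes were well above background on all 19 arrays, no spot of any array was saturated, and no spot of these genes was marked as an outlier. Across arrays 57.5% to 72.8% of probes were well above background. Brightest were both arrays with vit C at 96 h, with 75th percentiles of 806.3 and 923.7 against 296.8 to 638.5 on the other 17, and they sat on a slide of their own that was scanned on another day. No slide held UT and vit C-treated arrays of the same time. At 8, 24 and 48 h slide could be fitted beside treatment only through the UT arrays of 96 h, which lay on 2 slides, and at 96 h slide, scan day and treatment cannot be told apart. Of the 19 arrays 17 correlated best with an array of their own group. The third UT array of 96 h had its highest correlation across probes with an array of the other arm at that time (0.962, against 0.944 within its group), as did the first vit C-treated array of 24 h (0.983 against 0.977). Counts without these 2 arrays are given where they changed. Of 10 macrophage marker genes on the array, 8 were well above background on every array, with a summed linear level of 296 to 456. The mannose receptor gene MRC1 was not well above background on any array, and LYZ not on every array. Since RNA of whole flasks was measured, fewer cells of a type and less RNA per cell cannot be told apart.

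In UT cells the metallothioneins rose with time in culture. MT2A, the most widely expressed human isoform, had levels of 4.31 and 4.6 at 8 h, 5.32, 4.95 and 4.91 at 24 h, 6.46 and 6.63 at 48 h, and 7.25, 7.4 and 6.75 at 96 h. No array of a later time overlapped those of an earlier one. The difference between 96 and 8 h was 2.68 ± 0.23 on the log2 scale (SE, limma, q = 1.27e-06), which is 6.39-fold higher, and that between 48 and 8 h was 2.09 ± 0.25 (limma, q = 7.83e-05). Here and below a call asks for a log2 difference of 1 or more together with a q (Benjamini-Hochberg, over the whole array) no higher than 0.05.

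The type 1 genes followed. MT1G had levels of 2.82 and 2.93 at 8 h, 3.21, 2.86 and 3.11 at 24 h, 4.7 and 4.77 at 48 h, and 5.49, 5.24 and 5.13 at 96 h. The 8 and 24 h arrays overlapped, and all later arrays lay above them. Its rise from 8 to 96 h was 2.41 ± 0.2 (limma, q = 9.4e-07). MT1H rose by 2.43 ± 0.18, MT1X by 2.27 ± 0.18, MT1A by 2.11 ± 0.18 and MT1E by 1.88 ± 0.16 over the same interval, each with a limma q of at most 1.55e-06. The dim second probe of MT1E differed by 0.17 ± 0.26 there (q = 0.686), and the mean of its probes by 1.02.

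MT1F, a type 1 gene with a probe of its own, took another course. Its levels were 1.83 and 2.16 at 8 h, 0.91, 0.7 and 0.97 at 24 h, 2.19 and 2.39 at 48 h, and 3.07, 3.1 and 2.64 at 96 h. All 3 arrays at 24 h lay below both arrays at 8 h, and all 3 at 96 h above every other UT array. MT1F fell by 1.13 ± 0.22 between 8 and 24 h (limma, q = 0.0111), and its difference between 96 and 8 h was 0.94 ± 0.22 (limma, q = 0.00638), just under the fold that a call needs. The call at 24 h was lost without the second UT array of 8 h.

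In counts, 6 of 7 genes were called higher at 48 h than at 8 h in UT cells (5.54% of 26503 genes tested were), and 6 of 7 at 96 h (8.9% of all genes). MT1F was the exception at both times, and without the third UT array of 96 h all 7 were called at 96 h. At 24 h 1 of 7 was called, MT1F, lower (1.26% of all genes), while MT1E, MT1G and MT1H were left out of that test because their probes went in opposite directions. For 24, 48 and 96 h in turn, the median difference of the 7 genes was 0.12, 1.58 and 2.27, and over all genes tested it was 0.1, 0.08 and 0.05. Within the 1 slide that held UT arrays of all times, the 96 h array minus the 8 h mean was 2.79 for MT2A, 1.94 to 2.62 for the other type 1 genes but MT1F, and 1.08 for MT1F. The other 2 UT arrays of 96 h, on a second slide, differed from that array by -0.5 to 0.32 over the 7 genes.

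**Figure D1:**
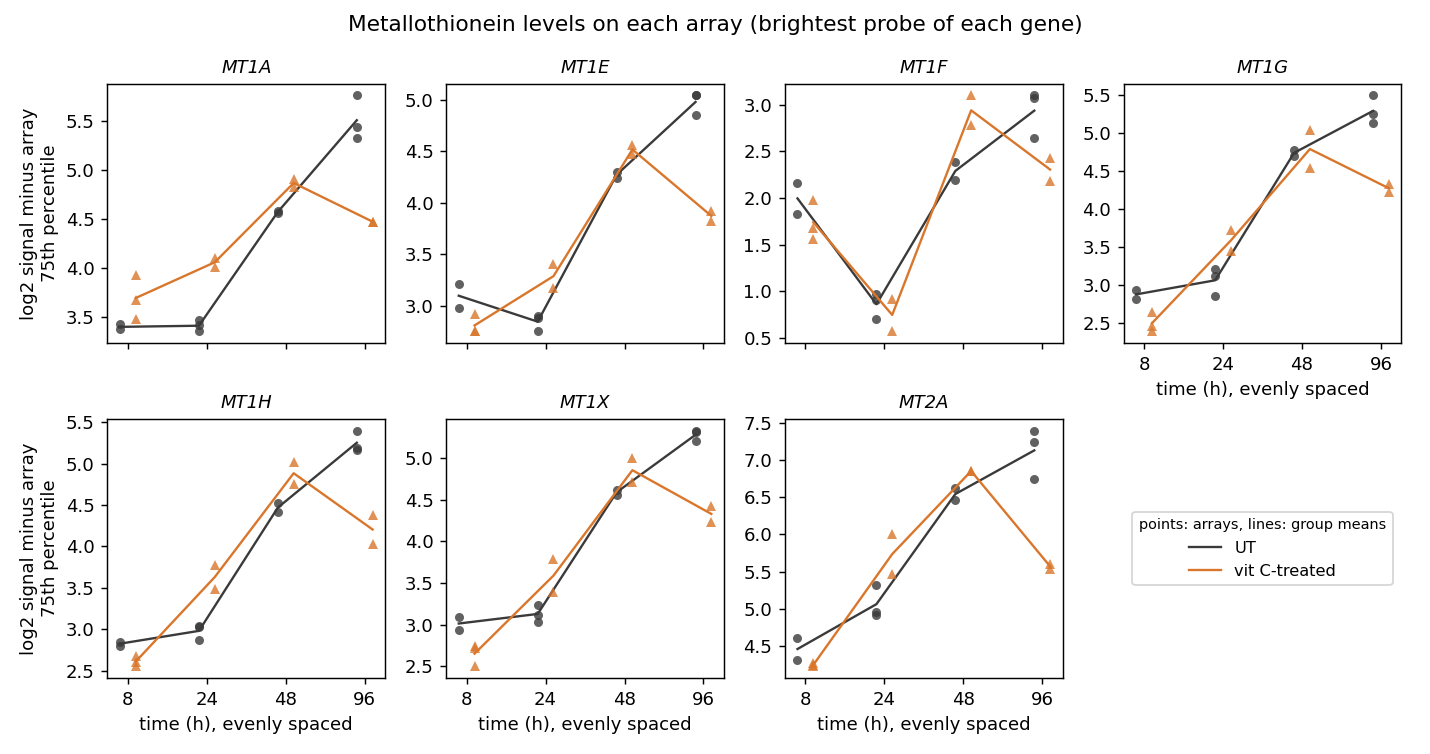
Levels of the 7 metallothionein genes on each of the 19 arrays (log2 processed signal of the brightest probe minus the array's 75th percentile, vertical axis) against time in hours, placed evenly; circles are UT arrays, triangles vit C-treated arrays, and lines join group means. Levels climbed to 96 h in UT cells, where MT2A reached 6.75 to 7.4, but in vit C-treated cells these scaled levels were highest at 48 h, where MT2A stood at 6.85 and 6.86, and lower at 96 h, at 5.54 and 5.6.

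In vit C-treated cells the genes also rose, 5 of them by 24 h on at least 1 probe, and after scaling they stood lower at 96 h than at 48 h. MT2A had levels of 4.24, 4.26 and 4.22 at 8 h, 5.46 and 6.01 at 24 h, 6.86 and 6.85 at 48 h, and 5.6 and 5.54 at 96 h. Both 48 h arrays lay above all others, and the 96 h arrays lay within the range of the 24 h arrays. Against 8 h MT2A rose by 1.5 ± 0.23 at 24 h (limma, q = 0.000928), by 2.61 ± 0.23 at 48 h (q = 2.18e-06) and by 1.33 ± 0.23 at 96 h (q = 0.000552).

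MT1E had levels of 2.75, 2.75 and 2.92 at 8 h, 3.17 and 3.4 at 24 h, 4.47 and 4.56 at 48 h, and 3.92 and 3.82 at 96 h. MT1X had 2.74, 2.5 and 2.72 at 8 h, 3.39 and 3.79 at 24 h, 4.71 and 5 at 48 h, and 4.43 and 4.23 at 96 h. In both genes the 4 times did not overlap and 48 h was the highest. MT1F again stood lowest at 24 h, with 0.92 and 0.57 against 1.68, 1.56 and 1.98 at 8 h, a difference of -0.99 ± 0.22 (limma, q = 0.0127) that missed the fold, and its 48 h arrays reached 2.78 and 3.1.

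At 24 h against 8 h 5 of 7 genes were called higher in vit C-treated cells (2.93% of all genes tested). They were MT2A, MT1G (1.09 ± 0.2), MT1H (1.02 ± 0.18) and, through their second probes, MT1X (1.01 ± 0.18) and MT1E. The second MT1E probe was not well above background on any vit C-treated array of 8 h, so its 24 h signal exceeded that of 8 h by at least 1.9-fold (limma, q = 0.00566), while the brighter MT1E probe differed by 0.48 ± 0.16 (q = 0.105), and without the dim probe 4 of 7 were called. Without the second vit C-treated array of 24 h 1 of 7 was called, and without the first 5 were called higher and 1 lower, MT1F. At 48 h all 7 were called higher (8.14% of all genes) with a median of 2.2, and at 96 h 5 were (10.9%) with a median of 1.33. MT1A (0.78 ± 0.18) and MT1F (0.57 ± 0.22) were not called at 96 h. MT1E was called there on its brighter probe (1.07 ± 0.16), while its second probe differed by 0.11 ± 0.26 (q = 0.765) and the mean of its probes by 0.59.

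The step from 48 to 96 h was compared in each arm after the levels had been seen. In vit C-treated cells MT2A fell by 1.28 ± 0.25 (limma, q = 0.00339), MT1E was called lower through its dim second probe (fell by 1.72 ± 0.29; the brighter probe differed by -0.65 ± 0.18), and the other 5 genes differed by -0.68 to -0.4 and were not called. That gave 2 of 7 called lower, where 19.9% of all genes were. In UT cells the 7 differences between 96 and 48 h ran from 0.56 to 0.94 on the brightest probes, and 1 of 7 was called higher (5.99% of all genes), MT1G through its second probe (1.05 ± 0.27). Without the third UT array of 96 h none was called. MT1E was left out of the UT test because its probes went in opposite directions, and its dim second probe was lower at 96 h in UT cells too, at -4.2, -4.36 and -4.98 against -3.37 and -3.59 at 48 h (-1.03 ± 0.26). No 96 h array overlapped a 48 h array for any of the 7 genes in either arm, where 24.3% of all genes lay higher without overlap in UT cells and 34.8% lower with vit C. Slides differ between these times in vit C-treated cells, so slide and time cannot be told apart in that step. The lower values with vit C at 96 h also rest on the scaling, since the 75th percentile was 357.3 and 376.8 on the 48 h arrays and 806.3 and 923.7 on those of 96 h. Before scaling the signals of every gene but MT2A were higher at 96 than at 48 h, with log2 differences of 0.55 to 0.84. MT1A had 10700 and 10800 at 48 h and 17800 and 20500 at 96 h. The 75th percentile rose over the same step, and the share of all genes with higher unscaled signals was not counted. The MT2A signals overlapped, at 41100 and 43800 against 39000 and 43100 (-0.05).

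**Figure D2:**
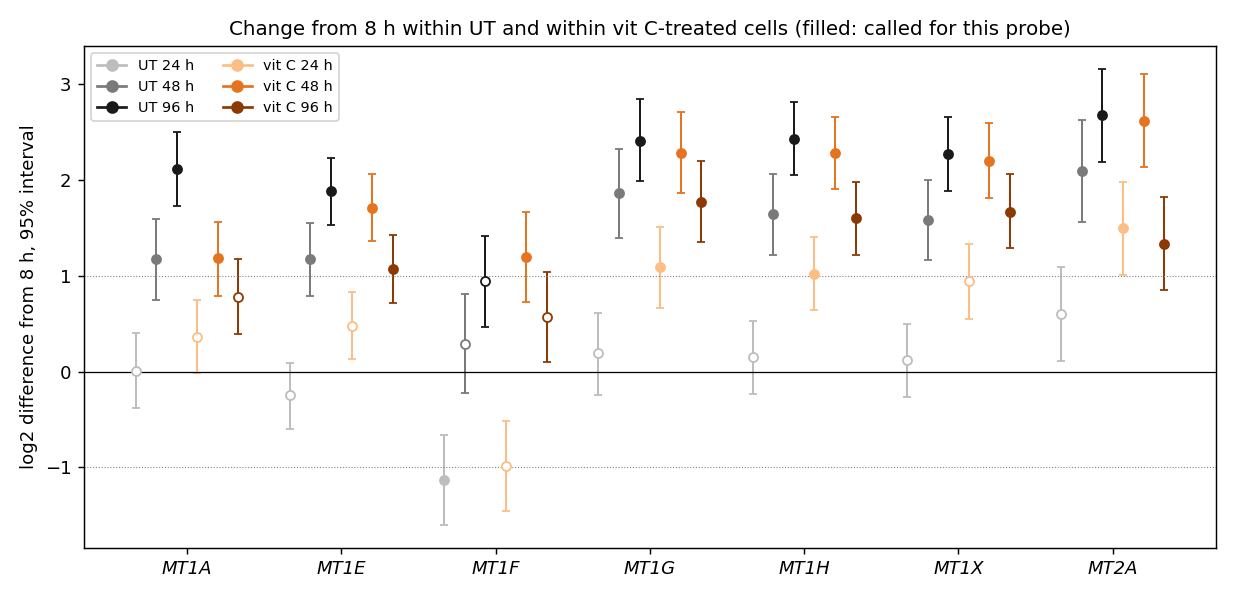
Log2 difference from 8 h (vertical axis, points with 95% intervals from limma) of the brightest probe of each gene at 24, 48 and 96 h, in grey for UT and in orange for vit C-treated cells; dotted lines mark the fold threshold of 1 and filled points were called. In UT cells 96 h stood above 48 h in all 7 genes, in vit C-treated cells 48 h stood above 96 h in all 7, and MT1F was below its 8 h level at 24 h in both arms (-1.13 and -0.99).

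Against time-matched UT cells, none of the 7 genes was called at 8 h of vit C (0.553% of all genes tested were). On the brightest probes none had an unadjusted p under 0.05 with limma, and the differences ran from -0.38 for MT1G to 0.3 for MT1A. The dim second probe of MT1E differed by -0.73 with an unadjusted p under 0.05 (limma, q = 0.249), and no vit C-treated array of 8 h had it well above background. The vit C-treated arrays lay above the UT arrays for MT1A and below them without overlap for MT1E, MT1G, MT1H, MT1X and MT2A, where arrays of 29.3% of all genes did.

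At 24 h most of the 7 genes stood higher in vit C-treated cells but none was called (1.67% of all genes tested were). MT1A had 4.1 and 4.01 with vit C against 3.35, 3.41 and 3.46 in UT cells, and MT1H 3.48 and 3.78 against 2.87, 3.04 and 3.03. Neither gene overlapped between the arms. The differences were 0.65 ± 0.18 for each (limma, q = 0.0861 and 0.0819), 0.68 ± 0.23 for MT2A (q = 0.151), 0.53 ± 0.2 for MT1G (q = 0.2), 0.46 ± 0.18 for MT1X (q = 0.211) and 0.44 ± 0.16 for MT1E (q = 0.19). In 6 of 7 genes the vit C-treated arrays lay above all UT arrays, as those of 16.3% of all genes did, and these 6 had an unadjusted p under 0.05. MT1F stood apart, with overlapping arrays and a difference of -0.11 ± 0.22. Leaving out the first vit C-treated array of 24 h gave 1 called gene, MT2A. With slide as a fixed block the differences at 24 h ran from 0.09 to 0.85 and none was called.

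At 48 h none of the 7 was called either (3.64% of all genes tested were), and 2 of 7 had an unadjusted p under 0.05 with limma. MT1E was left out of this test because its 2 probes went in opposite directions. The methods' t-test called none of the 7 at 8, 24 or 48 h. At 96 h it called 0 genes over the whole array, so its counts of none say little about the 7. The differences ran from 0.05 for MT1G to 0.65 for MT1F, which had levels of 2.78 and 3.1 with vit C against 2.19 and 2.39 (limma, q = 0.172). The intervals of these differences reached as far as 1.17 for MT1F and 0.84 for MT2A.

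At 96 h the metallothioneins were lower in vit C-treated cells. MT2A had levels of 5.6 and 5.54 with vit C against 7.25, 7.4 and 6.75 in UT cells. The arms did not overlap. The difference was -1.56 ± 0.23 with a 95% interval of -2.05 to -1.07 (limma, q = 0.00121), or 2.95-fold lower.

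Of the type 1 genes, MT1E had 3.92 and 3.82 against 5.04, 5.04 and 4.85, MT1A had 4.47 and 4.47 against 5.44, 5.32 and 5.76, and MT1G had 4.32 and 4.22 against 5.49, 5.24 and 5.13. MT1H had 4.03 and 4.38 against 5.19, 5.17 and 5.4, and in none of the 4 genes did the arms overlap. The difference of MT1E was -1.1 ± 0.16 (limma, q = 0.00134), and the differences of MT1A, MT1H and MT1G were -1.04 ± 0.18, -1.05 ± 0.18 and -1.02 ± 0.2 (q = 0.00427, 0.00359 and 0.00865). MT1X, at 4.43 and 4.23 against 5.33, 5.2 and 5.31, was called through its second probe (-1.07 ± 0.18, q = 0.003), while the brighter probe gave -0.96 ± 0.18. MT1F, at 2.43 and 2.18 against 3.07, 3.1 and 2.64, did not pass (-0.63 ± 0.22, q = 0.0674).

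Altogether 6 of 7 genes were called lower at 96 h, where 10% of all genes tested were, and 9 of 13 probes were called with all 13 on the lower side. The arms did not overlap in any of the 7 genes, as in 18.2% of all genes in that direction. The median difference was -1.04, against -0.19 over all genes tested and -0.08 over the 17292 genes well above background on all arrays. Genes that share sequence and neighbourhood are not independent counts. The number called rested on the scaling: quantile normalization and normexp background correction left 1 gene called and the percentile over detected probes left 2, with MT2A called under each (-1.42, -1.45 and -1.47). Without the third UT array of 96 h 4 were called, MT1A, MT1F and MT1H being the ones not called. A fit of the 2 groups alone and the methods' t-test called none of the 7, and over the whole array they called 3 and 0 genes. All 7 genes stayed lower in each of the 20 alternatives that gave a value.

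**Figure D3:**
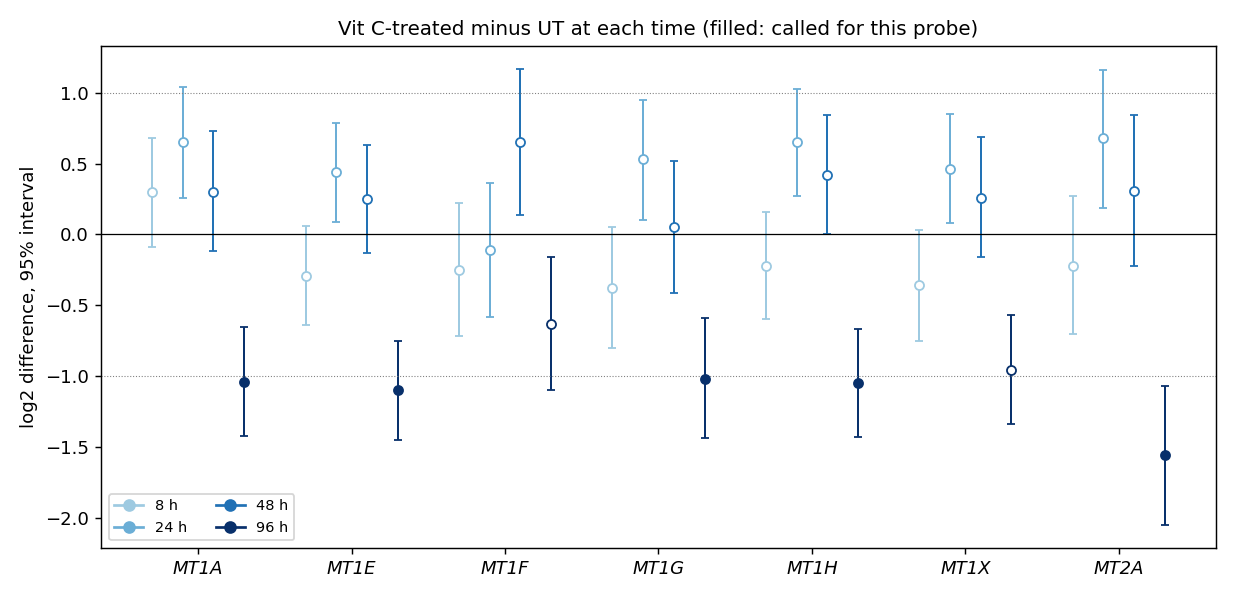
Log2 difference between vit C-treated and UT cells (vertical axis, points with 95% intervals from limma) at 8, 24, 48 and 96 h for the brightest probe of each metallothionein gene; dotted lines mark the fold threshold and filled points were called. Points at 24 and 48 h lie between -0.11 and 0.68 and those at 96 h between -1.56 and -0.63.

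The deposited signals before scaling show how much of the 96 h difference rests on the 75th percentile. The MT2A signal was 39000 to 43100 in vit C-treated cells and 58900 to 77600 in UT cells, with no overlap and an unscaled log2 difference of -0.73. For MT1A the ranges were 17800 to 20500 and 16800 to 34600, and for MT1X 17300 on both vit C-treated arrays against 15600 to 25400. MT1A, MT1E, MT1H and MT1X overlapped between the arms before scaling, with log2 differences of -0.27 to -0.12, MT1G did not (-0.18), and MT1F had the higher signal in vit C-treated cells (0.2). The remainder of each difference is the gap in 75th percentile between the arrays of the arms. Of 8 housekeeping genes 6 were tested in the same comparison, none of these was called, and their median difference was -0.11.

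**Figure D4:**
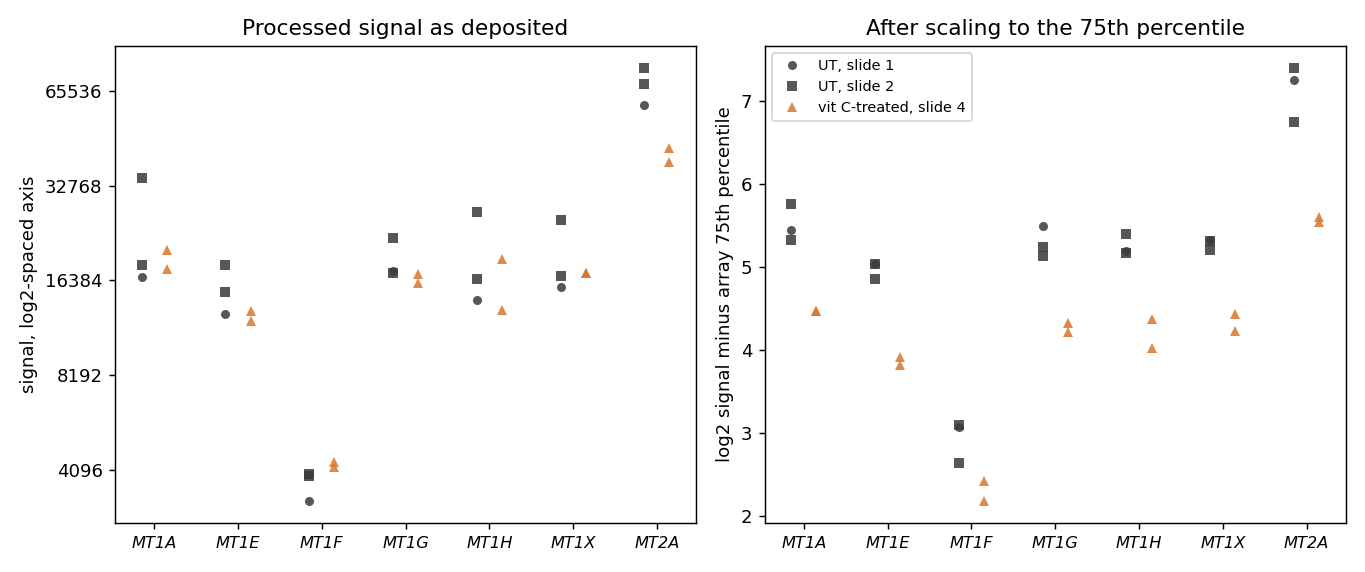
Signals of the 7 genes at 96 h as deposited (left, linear signal on a log2-spaced axis) and after scaling (right, log2 signal minus the array's 75th percentile); circles and squares are UT arrays on slides 1 and 2, triangles vit C-treated arrays on slide 4. MT2A was lower in vit C-treated cells on both scales, while MT1A, MT1E, MT1H and MT1X overlapped between the arms before scaling and not after it.

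Whether the effect of vit C changed with time was asked with an F test over its values at the 4 times. It passed for 5 of 7 genes (1.35% of all genes): MT2A, MT1H, MT1E, MT1A and MT1X, with limma q of 0.0146, 0.0156, 0.0166, 0.0186 and 0.0391. MT1G (q = 0.0569) and MT1F (q = 0.172) did not pass. Without either of the 2 vit C-treated arrays of 96 h 1 gene passed, so that the result rests on both. The average effect over the 4 times was called for none of the 7 (3.48% of all genes; 0 had an unadjusted p under 0.05), with differences of -0.2 to 0.05.

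The order of the 8 groups in MT2A was UT 96 h (7.13 ± 0.34, SD, n = 3), vit C 48 h (6.85 ± 0.01, n = 2), UT 48 h (6.55 ± 0.12, n = 2), vit C 24 h (5.73 ± 0.39, n = 2), vit C 96 h (5.57 ± 0.04, n = 2), UT 24 h (5.06 ± 0.23, n = 3), UT 8 h (4.46 ± 0.21, n = 2) and vit C 8 h (4.24 ± 0.02, n = 3). The first 2 groups overlapped, as did vit C 24 h with vit C 96 h, and the other neighbours did not. In MT1A, MT1E, MT1G, MT1H and MT1X the first place was also that of UT 96 h, followed by vit C 48 h. In MT1F UT 96 h and vit C 48 h were level at 2.94, with overlapping arrays.

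Across the 19 arrays the 21 pairs of the 7 genes had Pearson correlations of 0.611 to 0.992. Without MT1F no pair was under 0.877, and MT1F reached 0.824 at most. These correlations share the time course, and the brightest probes of MT1H and MT1X, and of MT1E and MT1G, also share sequence. Of the deviations from group means alone the correlations ran from -0.644 to 0.77. Over the same 19 arrays and among 17281 genes well above background on all of them, the genes most like the mean of the 7 were YPEL4 (0.966), SLC29A1 (0.96), CKS1B (0.959), FAM111A (0.958) and C1orf135 (0.956). These values share the time course too, and of the deviations from group means alone they ran from 0.049 to 0.799. With vit C, YPEL4 and C1orf135 were lower at 96 than at 48 h, as the 7 were. SLC29A1 (3.49 against 3.31), CKS1B (6.22 against 6.04) and FAM111A (5.77 against 5.63) were higher. SLC29A1 encodes a nucleoside transporter of the plasma membrane and CKS1B a subunit of cyclin-dependent kinases. Beside the rise with time, the summed linear level of 4 proliferation markers was between 4.27 and 4.42 in UT cells at 8 h and between 27.1 and 46.3 at 96 h, with 3.93 to 4.08 and 32.5 to 34.2 in vit C-treated cells. That of 4 genes of granulocyte precursors was between 42.9 and 44.2 in UT cells at 8 h and between 1.26 and 1.62 at 96 h, with 32.8 to 36.6 and 1.42 to 1.49 in vit C-treated cells. The summed level of 5 fibroblast markers, of which PDGFRA was the one well above background on every array and COL1A2 was so on none, was 0.742 to 0.754 at 8 h, 1.22 to 1.54 at 24 h, 4.49 to 4.54 at 48 h and 1.47 to 3.31 at 96 h in UT cells, and 0.609 to 0.874, 2.2 to 2.67, 5.42 to 6.11 and 5.35 to 5.86 in vit C-treated cells. From 24 h on the vit C-treated arrays lay above the UT arrays in it. The part of these cell states in the metallothionein levels was not tested.

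Of 21 other metallothionein names looked for, 8 were on the array. In UT cells MT1B, MT1L, MT1M and MT1JP were called higher at 96 than at 8 h (2.57, 2.4, 2.48 and 1.01), where 8.9% of all genes were. At 96 h 3 of the 5 tested were called lower with vit C, against 10% of all genes: MT1B at -1.47 ± 0.21 (limma, q = 0.00126), the transcribed pseudogene MT1JP at -1.54 ± 0.18 (q = 0.00018) and MT1M at -1.33 ± 0.33 (q = 0.0297). Before that MT1M and MT3 stood higher with vit C at 8, 24 and 48 h. The vit C-treated arrays of MT1M at 8 h, at 1.04, 1.44 and 1.52, lay above its UT arrays at -0.37 and -0.24. MT1M was the 1 called of 4 tested at 8 h (1.64 ± 0.33, limma, q = 0.0472), where 0.553% of all genes were called. At 24 and 48 h, when it was left out because its probes went in opposite directions, its brightest probe differed by 2.24 ± 0.33 and 2.17 ± 0.36. Those arms lay on different slides, and within UT cells at 96 h the MT1M level was 1.27 on the slide of the UT arrays and 2.82 and 2.43 on the slide of the vit C-treated arrays of 8 h. With slide as a fixed block the MT1M differences at 8, 24 and 48 h were 0.29 ± 0.33, 0.89 ± 0.33 and 0.65 ± 0.37, without a q because the probes opposed. MT4 was not well above background on any array.

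The zinc-sensing factor MTF1 went the opposite way in time. Its levels were 5 and 5.33 at 8 h and 3.54, 3.38 and 3.01 at 96 h in UT cells, and 5.03, 5.25 and 5.05 at 8 h and 3.64 and 3.42 at 96 h with vit C. Early and late arrays did not overlap in either arm. MTF1 fell by 1.86 ± 0.2 in UT cells (limma, q = 1.37e-05) and by 1.58 ± 0.2 with vit C (q = 5.1e-05), and at 96 h the arms differed by 0.22 ± 0.2 (q = 0.513).

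Of 10 zinc exporters, which move zinc out of the cytosol, 8 were well above background throughout at least 1 group and 7 of these entered the 96 h test, where 1 was called lower, beside 10% of all genes, and none higher. SLC30A1, the exporter of the plasma membrane and another MTF1 target, was not called against UT at 24, 48 or 96 h (-0.65 ± 0.28 at 96 h, q = 0.128) and was left out at 8 h because its probes went in opposite directions (-0.33 and 0.06), though it fell by 1.03 ± 0.28 between 8 and 96 h with vit C (q = 0.0116). SLC30A3, which loads zinc into vesicles, was the 1 called. Its UT levels at 96 h were 3.45, 3.44 and 3.26 and those with vit C 0.83 and 0.94, a difference of -2.5 ± 0.21 (limma, q = 1.49e-05). It had risen by 2.67 ± 0.21 from 8 to 96 h in UT cells, and its vit C-treated arrays were the lower ones at 48 h too (-0.97 ± 0.22, q = 0.0284, under the fold). Of 14 zinc importers 9, 10, 8 and 10 were detected and tested against UT at 8, 24, 48 and 96 h, and none of those was called. Of all genes 0.553%, 1.67% and 3.64% were called at 8, 24 and 48 h, and 2.73% higher and 10% lower at 96 h.

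The calgranulins S100A8, S100A9 and S100A12, secreted proteins that bind zinc, were all called higher with vit C at 96 h, where 2.73% of all genes tested were. S100A8 had 7.18 and 6.8 with vit C against 5.23, 5.87 and 6.23 in UT cells, with no overlap (1.21 ± 0.29, limma, q = 0.0237). S100A9 differed by 1.42 ± 0.42 (q = 0.0407) and S100A12 by 1.74 ± 0.3 (q = 0.0038). All 3 stayed higher under 5 other settings (quantile, normexp, the percentile over detected probes, the floor and the deposited matrix), with S100A9 not called when signals were floored at 20 (q = 0.101). At 24 and 48 h all 3 also stood higher with vit C, with median differences of 1.03 and 1.48. Of the 3, 1 was called higher at 24 h and 2 at 48 h, where 1.67% and 3.64% of all genes were called in either direction. At 8 h the median was -0.02 and none was called. In UT cells the 3 genes also rose between 8 and 96 h, by 6.49, 6.57 and 4.23.

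**Figure D5:**
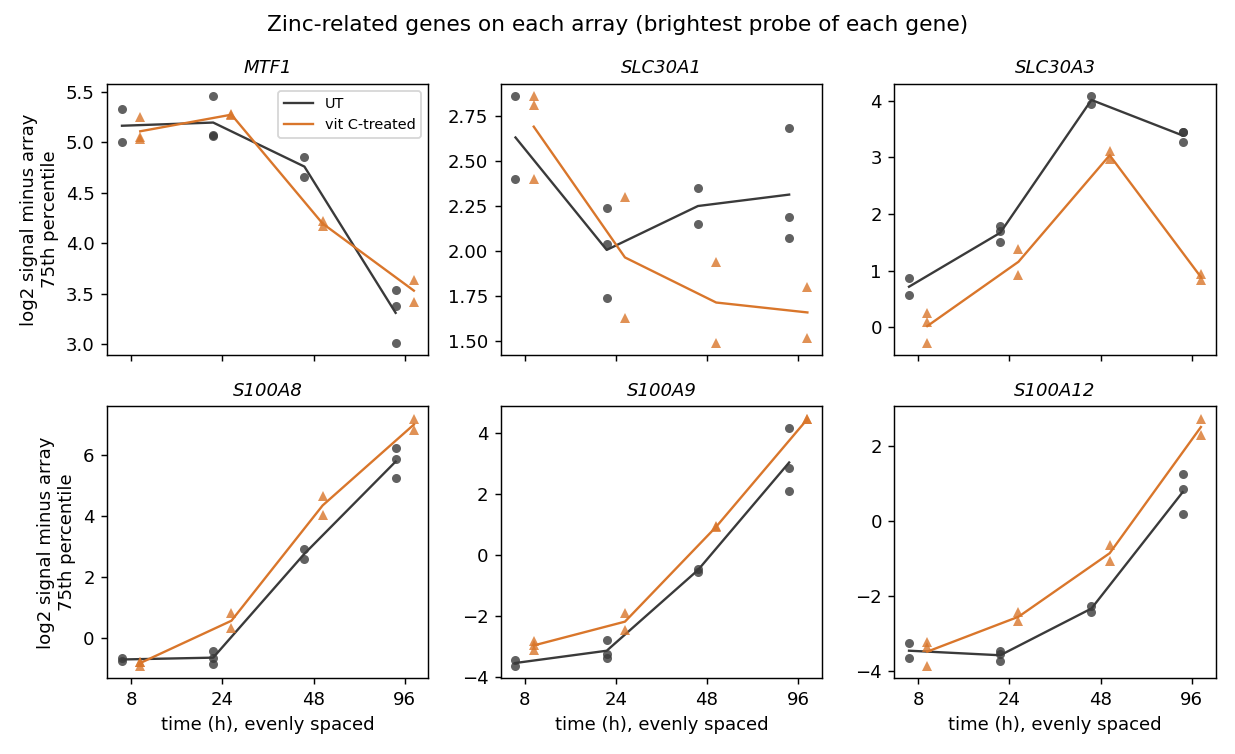
Levels of MTF1, SLC30A1, SLC30A3 and the calgranulins S100A8, S100A9 and S100A12 on each array (log2 processed signal of the brightest probe minus the array's 75th percentile) against time in hours, placed evenly; circles are UT arrays, triangles vit C-treated arrays, lines group means. MTF1 went down with time in both arms, and SLC30A3 at 96 h was at 0.83 and 0.94 with vit C against 3.26 to 3.45 in UT cells. The calgranulins were higher with vit C at 24, 48 and 96 h.

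Lists for other inducers of metallothioneins and for copper held single calls against UT, beside 1.67% of all genes at 24 h and 3.64% at 48 h. Of 9 metal and oxidant stress genes 5 were tested at 96 h and none of these was called. At 48 h 1 of the 8 tested was called higher, the cystine transporter SLC7A11, through a dimmer probe (1.71 ± 0.37, limma, q = 0.0216). Of 8 glucocorticoid-induced genes on the array 6 were tested at 24 h and 1 was called lower, TSC22D3, with -2.03 and -2.76 against -0.97, -0.59 and -0.58 (-1.68 ± 0.28, q = 0.00905), and 1 of 7 tested was called lower at 48 h, the kinase gene SGK (-2.84 ± 0.62, q = 0.0222), whose vit C-treated arrays were far apart, at 2.52 and 5.43, and on different slides. Of 9 copper genes 8 were tested at each time. The copper importer SLC31A1 was called lower at 24 h through a dimmer probe (-1.31 ± 0.28, q = 0.0328), and at 96 h the copper carrier ceruloplasmin (CP) was called at least 1.13-fold higher (q = 0.00302; 2.73% of all genes were called higher and 10% lower), since no UT array was well above background there.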

How the data were processed

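RNA of THP-1 cells was measured on 19 Agilent 1-colour arrays, grouped as the labels give. For the intensity values, the authors used Agilent's Feature Extraction, whose version is 10.5.1.1 per the file headers (array design of build hg18). For the log2 values, the authors shifted each array to its 75th percentile before they deposited the matrix, which served as an alternative. Depth is set by the number of arrays.

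Spots of 1 probe were averaged as log2 values and the 75th percentile of the non-control spots was subtracted. A model of 8 group means was fitted in R 4.3.3 with limma 3.58.1 (lmFit, eBayes, 2-sided), read with data.table (version 1.17.8) and tested on simulated data. Figures used Python 3.11.15 and matplotlib 3.10.9. A probe was called at a log2 difference of at least 1 and Benjamini-Hochberg q of at most 0.05 over the array. As in the methods, genes with opposing probes were removed first. The methods' t-test was kept as an alternative, since so few arrays per group leave its spread poorly known. A gene takes the value of its brightest probe.

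All 7 members were named, with MTF1, SLC30A1, list genes called against UT through a probe well above background throughout a group, and the 5 genes most correlated with the mean of the members. Members and lists were chosen with earlier results of these data known. A bound for a gene below background took, per array, the lowest signal well above background. Alternatives were other scalings, background corrections, filters, probe rules, slide and replicate blocks, array weights, the groups alone, and leaving out each array.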

Additional observations from a re-analysis of the deposited data

Results flagged for a closer look

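The effect of vit C differed between the 4 time points for 5 metallothioneins by limma's F test over the 4 effects. The q was 0.0146 for MT2A, 0.0156 for MT1H, 0.0166 for MT1E, 0.0186 for MT1A and 0.0391 for MT1X. All 5 had lower levels in vit C-treated cells at 96 h and higher mean levels at 24 and 48 h. Without either of the 2 vit C-treated arrays of 96 h 1 gene passed this test. No explanation was weighed, and at 96 h treatment, slide and scan day cannot be told apart.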

How the results depend on the processing

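The 96 h count of 6 called genes became 1 under quantile normalization, 2 with the percentile over detected probes, 1 with normexp, and 0 in a fit of only the groups compared and in the methods' t-test. It was 4 with the mean of the probes of a gene (MT1E and MT1G not called) and 5 with array weights and with the replicate block across the series (MT1A not called). The cause was not tested. Leaving out each array gave these ranges of called genes: vit C against UT 0 at 8 h, 0 to 1 at 24 h, 0 at 48 h and 4 to 6 at 96 h, UT against 8 h 0 to 1 at 24 h, 6 at 48 h and 6 to 7 at 96 h, vit C against 8 h 1 to 6 at 24 h, 7 at 48 h and 4 to 5 at 96 h, 96 against 48 h 0 to 2 in UT and 2 in vit C-treated cells, average 0, F test 1 to 6. With only the groups compared 0 genes were called in UT at 24 against 8 h and 3 in vit C-treated cells, where the mean of the probes of a gene gave 1. For UT 96 against 48 h the count was 0 under quantile normalization, the mean of the probes, slide as a fixed block, the replicate block across the series, array weights and only the groups compared, and 2 with opposing probes kept. Flooring signals at 20 gave 1 for vit C 96 against 48 h. For vit C 96 against 8 h the count was 4, without MT1E, under the mean of the probes, and under normexp, the floor, the replicate block across the series and without the third vit C array of 8 h or the first of 96 h, where the MT1E probes opposed.

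Reversals were near 0: MT1F with vit C at 24 h (0.01 with normexp, 0.09 with slide as a fixed block, -0.29 to 0.06 with 1 array left out), MT1G at 48 h (-0.19 to 0.3 with 1 array left out), MT1A in UT at 24 against 8 h (0 with quantile, -0.03 with normexp, -0.08 with the replicate block across the series, -0.02 to 0.04 with 1 array left out), and, with the mean of the probes, MT1G there (-0.09) and MT1E in UT at 96 against 48 h (-0.16).

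Same-numbered arrays did not deviate together (correlations of -0.336 to 0.129). With so few arrays per group these correlations cannot settle whether equal numbers mark a shared experiment. With the replicate block within time points the 96 h count was 4, the F test count 0 and the counts at 8, 24 and 48 h 0. Crossing the numbers at 48 h, tried after seeing the data, also gave 0. The slide block could not be estimated for the vit C arrays of 96 h, the average or the F test.

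Over all genes the share of 96 h calls that were higher was 21.4%, but 56% under quantile normalization, 50.9% with the percentile over detected probes and 56.1% with the floor, and called genes went from 3363 to 1000, 1442 and 747. They were 829 with normexp, 1142 with dim probes left out, 1739 with an intensity trend, 5803 with array weights, 5687 and 1205 with the replicate block within time points and across the series, 3 with only the groups compared and 0 in the t-test.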
